A study of Mus musculus with 16 samples.

Results

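Major urinary proteins are small secreted lipocalins, and the rows described here are the 10 Mup genes named Mup1, Mup3, Mup7, Mup10, Mup11, Mup12, Mup14, Mup17, Mup20 and Mup21. Their rows were found by symbol among the 52143 genes of a liver count table, in which 49 rows carry a Mup symbol. These 10 were chosen as members with earlier results of these data known. The share of members called is therefore not that of a set picked blind to the data. The libraries came from livers of male C57BL6/J mice that were 6 weeks old when they were put on chow or on a high-fat diet (HFD, 60% fat) for 12 weeks. At intervals of 2 weeks each mouse was given an injection, either saline alone or 3 mg/kg siRNA directed at Fgfr4, the fibroblast growth factor receptor through which hepatocytes sense the gut hormone FGF15. The siRNA carried N-acetylgalactosamine, a sugar that directs it to hepatocytes, so the knockdown (KD) lowers the receptor in these cells and is not a deletion. The 4 groups of 4 libraries are Chow (chow and saline), Chow/FGFR4 KD (chow and siRNA), HFD (high-fat diet and saline) and HFD/FGFR4 KD (high-fat diet and siRNA). The saline mice received no control siRNA, so an effect of Fgfr4 loss cannot be told apart from an effect of receiving an siRNA.

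In male mice the liver makes major urinary proteins in very large amounts and releases them into the blood, from which they pass into the urine. There they hold volatile pheromones in their barrel-shaped pocket and release them slowly, and the protein itself can act as a scent signal. The pulses of growth hormone typical of males switch these genes on through the factor STAT5B, androgens act upstream on the pituitary, and glucocorticoids and thyroid hormone also sustain their expression. Many copies stand in an array on chromosome 4 that arose by repeated duplication, which is why several copies are almost the same in sequence.

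All 10 members lie on the minus strand of chromosome 4, between 60066469 (the lower end of Mup7) and 62150863 (the upper end of Mup21) in build GRCm38, and all are protein-coding. By their coding sequence they fall into a near-identical set of 7, to which Mup1, Mup7, Mup10, Mup11, Mup12, Mup14 and Mup17 belong, and 3 more distant members. The 21 pairs within the set were 98.53% to 99.63% identical, a difference of 2 to 8 coding bases. Mup20, which encodes darcin, the pheromone that draws females to a male's urine mark, was 90.61% identical to Mup7. Mup3 was 83.98% and Mup21 84.16% identical to Mup7, and these 2 were 96.34% identical to each other. The same 90 bases of the coding sequence, across 1 intron, are shown for 6 genes because they make plain which copies short reads can tell apart. Capitals mark bases that differ from Mup7, and each line follows the minus strand from 5′ to 3′.
Mup7, chr4:60068944-60069791: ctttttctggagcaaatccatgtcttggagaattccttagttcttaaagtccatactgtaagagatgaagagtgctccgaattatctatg
Mup19, chr4:61780802-61781649: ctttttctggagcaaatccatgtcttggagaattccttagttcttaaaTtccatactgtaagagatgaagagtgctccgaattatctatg
Mup10, chr4:60580722-60581579: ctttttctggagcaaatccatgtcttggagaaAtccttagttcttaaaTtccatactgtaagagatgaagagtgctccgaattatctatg
Mup20, chr4:62052679-62053538: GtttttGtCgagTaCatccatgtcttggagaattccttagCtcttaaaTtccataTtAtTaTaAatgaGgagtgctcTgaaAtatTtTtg
Mup3, chr4:62086002-62086858: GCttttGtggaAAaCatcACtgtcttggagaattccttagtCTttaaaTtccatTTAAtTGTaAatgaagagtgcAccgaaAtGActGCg
Mup21, chr4:62149397-62150253: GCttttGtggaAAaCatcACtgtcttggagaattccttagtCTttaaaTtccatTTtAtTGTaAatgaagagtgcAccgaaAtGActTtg
In this window Mup19 differs from Mup7 at 1 base and Mup10 at 2, whereas Mup20 differs at 17, Mup21 at 23 and Mup3 at 25. The window was chosen for holding many differences without a gap.

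The likeness limits what a value for a single copy means. The deposited values are estimated counts, in which reads that fit several transcripts are divided among them by a model. Of the 31-base words in the annotated transcripts of each gene, 92.1% of those of Mup12, 90.02% of Mup7, 89.2% of Mup14, 86.2% of Mup17, 83.3% of Mup11, 83.3% of Mup10 and 70.2% of Mup1 also occurred in other genes. The shares were 64.5% for Mup20, 33.9% for Mup21 and 30.1% for Mup3. Mup19, a copy outside the 10 members, had no word of its own. Values for the 7 near-identical copies are therefore uncertain one by one, and the sum over members is given first.

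The promoters of 7 members were in the RefSeq table of build GRCm38.p6. Those of Mup1, Mup12 and Mup20 were not. Stretches at the start site, of which that of Mup11 ends 4 bases past it, are shown for 4 of them, a pair from the near-identical set and the pair of distant members, because the members moved in the same direction with diet. Each holds 130 bases on the minus strand, 5′ to 3′, and capitals mark the letters TATATAA at the end.
Mup10, chr4:60582179-60582308: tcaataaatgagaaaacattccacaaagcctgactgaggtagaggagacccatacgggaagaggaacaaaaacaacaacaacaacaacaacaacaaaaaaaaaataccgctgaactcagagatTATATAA
Mup11, chr4:60662391-60662520: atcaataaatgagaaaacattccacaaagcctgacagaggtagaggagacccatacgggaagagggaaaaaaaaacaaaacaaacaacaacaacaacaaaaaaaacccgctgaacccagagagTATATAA
Mup3, chr4:62087322-62087451: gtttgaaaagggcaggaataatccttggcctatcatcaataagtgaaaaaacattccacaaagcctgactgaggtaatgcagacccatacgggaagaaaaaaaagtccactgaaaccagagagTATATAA
Mup21, chr4:62150843-62150972: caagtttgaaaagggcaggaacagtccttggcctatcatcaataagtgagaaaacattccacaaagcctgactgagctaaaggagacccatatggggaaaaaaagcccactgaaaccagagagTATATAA
On either strand of windows reaching from 250 bases before to 50 bases after the annotated start, TATATAA, a form of the TATA box, occurred in 6 of the 7 member promoters and in 3.24% of all 32851 promoters. These letters were picked after the sequences had been read. On the strand of the gene they began at -30 from the annotated start in Mup10, -25 in Mup17 and -11 in Mup3. In Mup21 they began at -8, in Mup11 at -2 and in Mup14 at 12, so their place varied. Whether the annotated starts, which set all these windows, are exact was not tested. The STAT5 motif TTCNNNGAA occurred in 0 of 7 member windows and in 8.3% of all, TTGCNNAA, a form of the C/EBP motif, in 0 of 7 and in 10.8%, CCAAT in 4 of 7 and in 37.4%, and TGTTCT, the core of a steroid receptor element, in 2 of 7 and in 18.97%. A match is a description of the letters in this window only.

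Libraries held 3445949 to 5976449 counts, and 2 rows that are no Mup, Gm42418 and Lars2, took 12.2% to 25.3% of them. The targeted Fgfr4 stood at 29.7 ± 4.57 CPM (CPM, counts scaled to a common library size, mean ± SD, n = 4) in Chow, 4.78 ± 1.60 in Chow/FGFR4 KD, 25.7 ± 4.25 in HFD and 3.74 ± 1.35 in HFD/FGFR4 KD, and its groups with and without siRNA did not overlap. Summed markers of hepatocytes, the cells that make major urinary proteins, ranged from 57930 to 78110 CPM over the 16 libraries. The library HFD/FGFR4 KD 1 stood apart from its group. Over 1028 non-Mup genes that differed by diet in saline mice (adjusted p under 0.05), its level was nearer to the Chow mean than to the HFD mean in 66.5%, against 18% to 33.8% in the other 3 libraries of the group. Its Fgfr4 level was 2.82 CPM. The main results that rest on it are given with and without it.

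The 10 members together took a smaller share of all liver counts on the high-fat diet than on chow. Their summed share of all counts in the Chow libraries was 7.93%, 7.58%, 4.67% and 5.19%, and in the HFD libraries 1.15%, 4.16%, 1.02% and 3.13%. All 4 HFD libraries thus lay below the lowest Chow library, and 2 of them, HFD 1 and HFD 3, lay far below the other HFD libraries. The means were 6.34% ± 1.65 (SD, n = 4) in Chow and 2.36% ± 1.54 in HFD, a ratio of 2.68.

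Under knockdown the summed share was 4.55%, 8.27%, 6.70% and 6.37% in Chow/FGFR4 KD and 5.44%, 2.83%, 1.37% and 1.73% in HFD/FGFR4 KD. Here the diets overlapped through 1 library, HFD/FGFR4 KD 1, whose share lay within the range of both chow groups. The means were 6.47% ± 1.53 and 2.84% ± 1.84, a ratio of 2.28. Without that library the HFD/FGFR4 KD mean was 1.98% ± 0.757 (n = 3), and the highest of its libraries lay below the lowest of Chow/FGFR4 KD.

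Between saline and siRNA the sum differed by less than its spread. The mean difference was 0.479 percentage points on HFD and 0.131 on chow, against pooled SDs of 1.7 and 1.59 points. Without HFD/FGFR4 KD 1 the difference on HFD turned to -0.388 points, so its direction rested on that library. No p is given for a sum over chosen members. Counting error was small beside these differences, since the widest 95% Wilson interval of a library's share reached 0.0262 points to either side, which covers the sampling of counts and not the division of reads or the spread between mice.

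**Figure D1:**
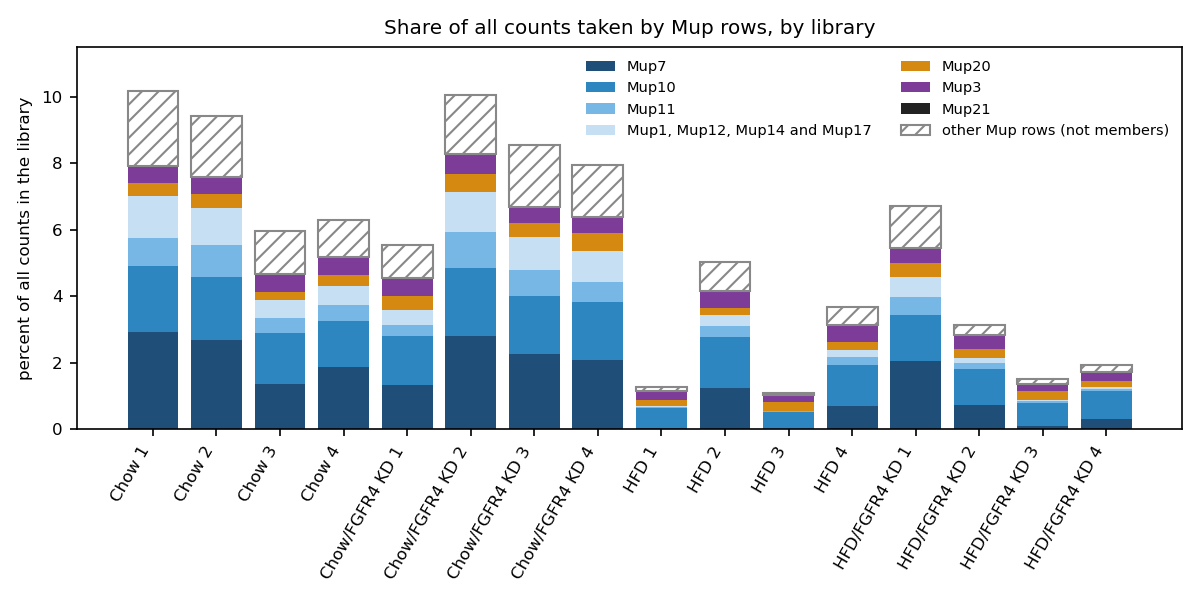
Stacked bars give the percent of all counts in each of the 16 libraries taken by Mup rows; solid colours are the 10 members, split by gene, and the hatched part is all other rows with a Mup symbol. The solid part stands at 4.67% to 7.93% in Chow and at 1.02% to 4.16% in HFD, and HFD/FGFR4 KD 1 reaches 5.44%.

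Besides the members, 39 rows carry a Mup symbol, 27 of them pseudogenes. Of these rows 9 had no count in any library and 16 had at most 3 counts in every library, and only Mup19 and Mup2 held over 1% of the Mup total. With all 49 rows the share was 7.97% ± 2.16 in Chow, 8.03% ± 1.89 in Chow/FGFR4 KD, 2.76% ± 1.91 in HFD and 3.32% ± 2.36 in HFD/FGFR4 KD. The members held 77.8% to 82.6% of all Mup counts in Chow and 82.9% to 93.4% in HFD. Mup19, which is inseparable from its neighbours by 31-base words, fell from 12800 ± 3781 CPM in Chow to 2726 ± 3009 CPM in HFD (log2 change -3.47, SE 0.99, adjusted p = 0.0367), and Mup2 from 2613 ± 1320 to 328.5 ± 426 CPM (-4.36, SE 1.29, adjusted p = 0.0434).

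Per kilobase of the longest annotated transcript, the order of the members in Chow ran from Mup7 at 24020 ± 9097 CPM per kb and Mup10 at 20240 ± 4318 to Mup12 at 690 ± 321 and Mup21 at 170 ± 63.6. Between them came Mup11 at 8196 ± 3585, Mup3 at 5737 ± 453, Mup14 at 4582 ± 1882, Mup20 at 4249 ± 1276, Mup17 at 3146 ± 1516 and Mup1 at 2214 ± 1148. The spreads over mice of Mup7 and Mup10 overlapped, as did those of all neighbours from Mup11 down to Mup1. Within libraries Mup20 lay above Mup17, and Mup17 above Mup1, in every Chow library, while the other pairs compared here changed order between libraries. In HFD the order changed at the top, with Mup10 at 9598 ± 5255 CPM per kb, Mup7 at 4555 ± 5438 and Mup3 at 3385 ± 1569. Mup7 lay below Mup10 in every HFD library. The spread of Mup7 in HFD exceeded its mean, so its place among the members below Mup10 is not settled.

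The comparison of HFD with Chow in saline mice asks how the diet alone moved these genes. All 10 members had a lower fitted level on HFD and 9 of 10 were called lower, at the threshold of the study (p under 0.05 and adjusted p under 0.25), in a test of 11324 genes in which 12.7% were called lower. The median fitted log2 change of the members was -3.32, and over all genes tested it was 0.01. In 8 of the 10 members no HFD library reached a Chow library, against 7.76% of all genes tested. At an adjusted p under 0.05, which 9.2% of all genes passed, 7 members were called.

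The 2 most abundant copies are given first, and whether their changes differed in size was not tested. Mup7 stood at 32530, 32350, 13180 and 21170 CPM in Chow and at 284.6, 11860, 159.2 and 6519 CPM in HFD. The groups did not overlap, and HFD 1 and HFD 3 lay far below every other library of both groups. Its fitted log2 change was -4.08 (SE 1.18, adjusted p = 0.0387), a mean over logs in which the 2 lowest libraries weigh heavily, while the Chow mean was 5.27 times the HFD mean and edgeR gave -2.40. Mup10 stood at 21760, 22640, 14950 and 15680 CPM in Chow and at 5218, 14530, 4457 and 11380 CPM in HFD. Its groups also did not overlap, although the highest HFD library came close to the lowest Chow library. The log2 change was -1.22 (SE 0.33, adjusted p = 0.0287), so that Mup10 overtook Mup7 as the largest Mup row in HFD.

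The remaining copies of the near-identical set all fell. Mup11 had 9287, 11480, 4376 and 5347 CPM in Chow and 262.9, 3147, 200.9 and 2063 CPM in HFD, with no overlap (log2 change -3.20, SE 0.84, adjusted p = 0.0246). Mup14 ranged from 2596 to 5816 CPM in Chow and from 55.8 to 1151 CPM in HFD (-3.96, SE 1, adjusted p = 0.0201). Mup17 ranged from 1507 to 4358 CPM and from 28.2 to 1031 CPM (-3.99, SE 1.19, adjusted p = 0.0437). Mup1, the copy for which the family is best known in metabolic studies, ranged from 929.1 to 3061 CPM and from 51.7 to 670.1 CPM (-3.43, SE 0.88, adjusted p = 0.0219). Mup12 ranged from 304.5 to 953.1 CPM and from 10.7 to 264 CPM (-3.55, SE 0.94, adjusted p = 0.0255). None of these ranges met, and in each the same HFD libraries, 1 and 3, were the lowest.

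The 3 distant members fell less far or were not called. Mup20 stood at 4455, 5157, 2379 and 3784 CPM in Chow and at 1654, 2041, 2254 and 2429 CPM in HFD. The groups met, since Chow 3 lay below the highest HFD library (log2 change -0.87, SE 0.29, adjusted p = 0.0646). Mup3 stood at 5618, 5941, 5025 and 5996 CPM in Chow and at 2216, 4851, 1802 and 4455 CPM in HFD, with no overlap (-0.88, SE 0.28, adjusted p = 0.0613). Mup21, the least abundant member, stood at 128.5, 96.9, 67.0 and 167.4 CPM in Chow and at 33.7, 102.5, 46.2 and 107.7 CPM in HFD. It overlapped between the diets and was not called (-0.77, SE 0.41, adjusted p = 0.255). It passed the call when any of Chow 3, HFD 2 or HFD 4 was left out. Whether the distant members fell by less than the near-identical set was not tested.

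**Figure D2:**
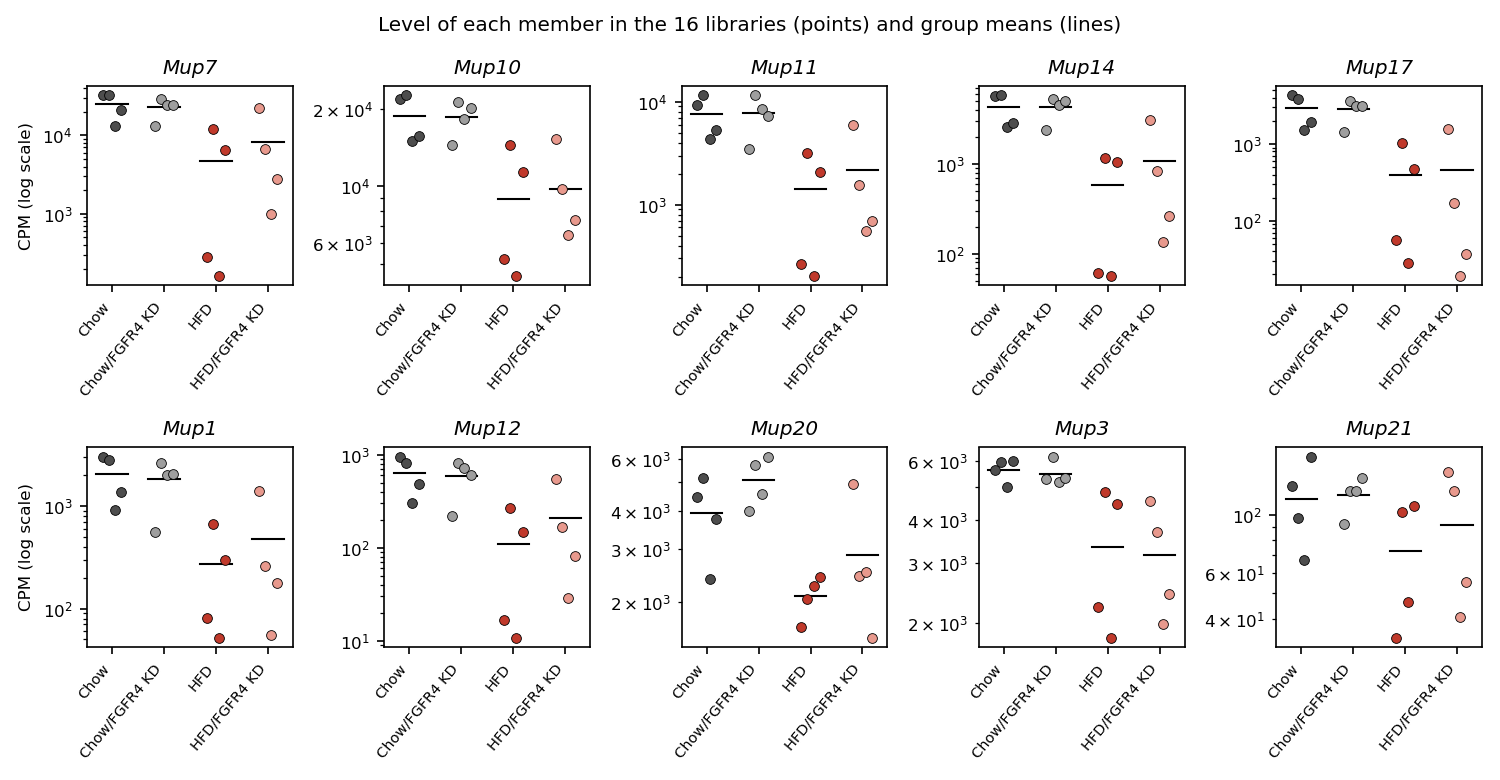
Each panel shows a member, with CPM on a log scale against the 4 groups; points are the 16 libraries, in replicate order within a group, and lines are group means. In the near-identical copies HFD 1 and HFD 3 sit far below HFD 2 and HFD 4, as at 284.6 and 159.2 against 11860 and 6519 CPM for Mup7, while the HFD points of Mup20 lie between 1654 and 2429 CPM.

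The spread among mice of a group was wide for most of these genes on HFD. Over 6879 genes with a mean of at least 10 CPM, the highest HFD library exceeded the lowest by a median of 1.29 times, and 95% of them by less than 2.09 times. The median over the 10 members was 14.3 times in HFD and 14.8 times in HFD/FGFR4 KD, against 2.48 in Chow and 2.22 in Chow/FGFR4 KD. The 95th percentile over all these genes was 2.11 times in Chow and 2.40 in Chow/FGFR4 KD. The HFD/FGFR4 KD value rested on HFD/FGFR4 KD 1, without which the median over the members was 3.93 times, that over all genes 1.2 times and their 95th percentile 1.69 times. In HFD the ratio was 74.5 times for Mup7 and 36.5 times for Mup17. It was 3.26 times for Mup10, 3.20 for Mup21, 2.69 for Mup3 and 1.47 for Mup20. Genes outside the family also spread widely in HFD, as Selenbp2 at 15.7 times and Serpina1e at 9.02, but Gstp1 at 1.14 did not. In HFD the lowest library was HFD 3 for 8 members and HFD 1 for the other 2, and in Chow it was Chow 3 for all 10. Each member moved with the rest of the family, as its log2 level correlated with that of the other 9 summed at r = 0.82 (Mup20) to 0.99 (Mup11) over 16 libraries. With group means removed r was 0.63 for Mup20 and 0.84 to 0.99 for the others. These libraries share their scaling and the near-identical copies share reads, so the correlations are a description.

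The makeup of the Mup total also differed between the diets in saline mice. Mup7 made up 28.8%, 28.6%, 22.7% and 29.7% of all Mup counts in Chow, and 2.61%, 24.8%, 1.64% and 19.2% in HFD. In HFD 1 and HFD 3, the libraries with the smallest sums, it was a minor row. Mup10 made up 19.3% to 25.8% in Chow and 30.4% to 47.8% in HFD, Mup3 4.98% to 8.67% and 10.1% to 20.3%, and Mup20 3.95% to 5.32% and 4.27% to 23.2%. The shares of Mup10 and Mup3 were higher in all 4 HFD libraries than in any Chow library, and those of Mup20 overlapped. The sum of the 7 near-identical members does not depend on how reads were divided among them. It does depend on the division of reads with Mup19 and Mup2, which are no members. These 7 members held 85.7% ± 2.76 of the member counts in Chow and 68.4% ± 12.9 in HFD. Their values were 88.4%, 87.7%, 83.5% and 83.1% against 60.5%, 82.4%, 54.8% and 75.8%, and did not overlap.

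The comparison of HFD/FGFR4 KD with Chow/FGFR4 KD asks the same of the diet under knockdown. All 10 members had a lower fitted level on HFD and 8 of 10 were called lower, against 10.1% of all genes tested. The median log2 change was -2.21, and over all genes it was -0.01. Mup3 was the only member without overlap between the diets, which held for 5.61% of all genes tested. In the other 9 members HFD/FGFR4 KD 1 reached into the chow range, and in Mup21 HFD/FGFR4 KD 2 did so too. Mup3 stood at 5307, 6166, 5181 and 5324 CPM in Chow/FGFR4 KD and at 4576, 3694, 1974 and 2435 CPM in HFD/FGFR4 KD (-0.87, SE 0.28, adjusted p = 0.102). Mup17 changed most, from 1433, 3632, 3142 and 3184 CPM to 1590, 170.9, 18.7 and 37.1 CPM (-4.53, SE 1.19, adjusted p = 0.0497), and was the only member to pass an adjusted p under 0.05, as 3.1% of all genes did. Its 3 low libraries lay far below every chow library, and the first lay among them.

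Mup7 was not called in this comparison. It stood at 13320, 29340, 24190 and 24150 CPM in Chow/FGFR4 KD and at 22490, 6649, 991.1 and 2746 CPM in HFD/FGFR4 KD (-2.28, SE 1.19, adjusted p = 0.296). Mup21 was not called either (-0.57, SE 0.42, adjusted p = 0.474). The other called members were Mup14 (-2.90, SE 1.01, adjusted p = 0.121), Mup1 (-2.69, SE 0.88, adjusted p = 0.103), Mup11 (-2.36, SE 0.84, adjusted p = 0.131), Mup12 (-2.14, SE 0.91, adjusted p = 0.199), Mup10 (-0.999, SE 0.33, adjusted p = 0.106) and Mup20 (-0.95, SE 0.29, adjusted p = 0.079). Without HFD/FGFR4 KD 1 all but Mup21 were called, 9 of 10, where 1261 of 11405 genes were called lower. The median of the members was then -2.97, and Mup7 reached -3.05 (SE 1.19, adjusted p = 0.145). Without HFD/FGFR4 KD 3 only 4 members were called and without HFD/FGFR4 KD 4 only 5. Calls over all genes in either direction, 2293 with all libraries, were 2546 without HFD/FGFR4 KD 1. They were 1453 without HFD/FGFR4 KD 3 and 1189 without HFD/FGFR4 KD 4. The count of members thus depended on single libraries in both directions, as the calls over all genes did.

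The comparison of HFD/FGFR4 KD with HFD asks whether loss of the receptor moved these genes in mice on HFD. No member was called by limma, edgeR or DESeq2, and none had an unadjusted p under 0.05 in the limma fit, while 3.14% of all genes were called in either direction. The fitted log2 change was above 0 for 8 members and below 0 for 2, with a median of 0.43 against 0.00 over all genes. Mup7 had the largest value, 1.71 (SE 1.13, adjusted p = 0.63), followed by Mup12 at 1.28 (SE 0.94), Mup14 at 1.11 (SE 0.97) and Mup11 at 0.85 (SE 0.82). Mup1 had 0.54 (SE 0.86), Mup20 0.33 (SE 0.28), Mup21 0.32 (SE 0.42), Mup10 0.22 (SE 0.33), Mup3 -0.02 (SE 0.28) and Mup17 -0.51 (SE 1.16). In every member the 2 groups overlapped, where 3.33% of all genes lay apart as lower and 3.16% as higher. HFD/FGFR4 KD 1 was the highest of its group for all 10 members, and without it the median was 0.02, with Mup7 at 0.94 (SE 1.14) and Mup1 at -0.32 (SE 0.78). The standard errors of the near-identical copies other than Mup10, 0.82 to 1.16 on the log2 scale, show how widely these libraries varied, so a knockdown effect of that size was not detectable here.

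The comparison of Chow/FGFR4 KD with Chow asks the same in mice on chow. The fitted log2 changes of the 10 members lay between -0.20 (Mup1, SE 0.90) and 0.41 (Mup20, SE 0.29), 0 members were called by limma, edgeR or DESeq2, and none had an unadjusted p under 0.05 in the limma fit. Of all genes 0.00883% were called, which is Fgfr4 itself. Mup20 stood at 4455, 5157, 2379 and 3784 CPM in Chow and at 4011, 5697, 4579 and 6090 CPM in Chow/FGFR4 KD, 2 groups that overlapped (log2 change 0.41, limma adjusted p = 0.976). No member lay apart between these groups, as 1.18% of all genes did as lower and 1.33% as higher. The difference between the knockdown effects on the 2 diets was likewise called for 0 members by limma, edgeR and DESeq2, with 0.0353% of all genes called. It was largest for Mup7 at 1.80 (SE 1.67, adjusted p = 0.874) and lowest for Mup17 at -0.53 (SE 1.68), and no member had an unadjusted p under 0.05. The median over the members was 0.48, and without HFD/FGFR4 KD 1 it was -0.06, with Mup7 at 1.03 (SE 1.63) and Mup17 at -1.82 (SE 1.40). No member was called in that fit, where 7 of 11405 genes were called higher and 1 lower.

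**Figure D3:**
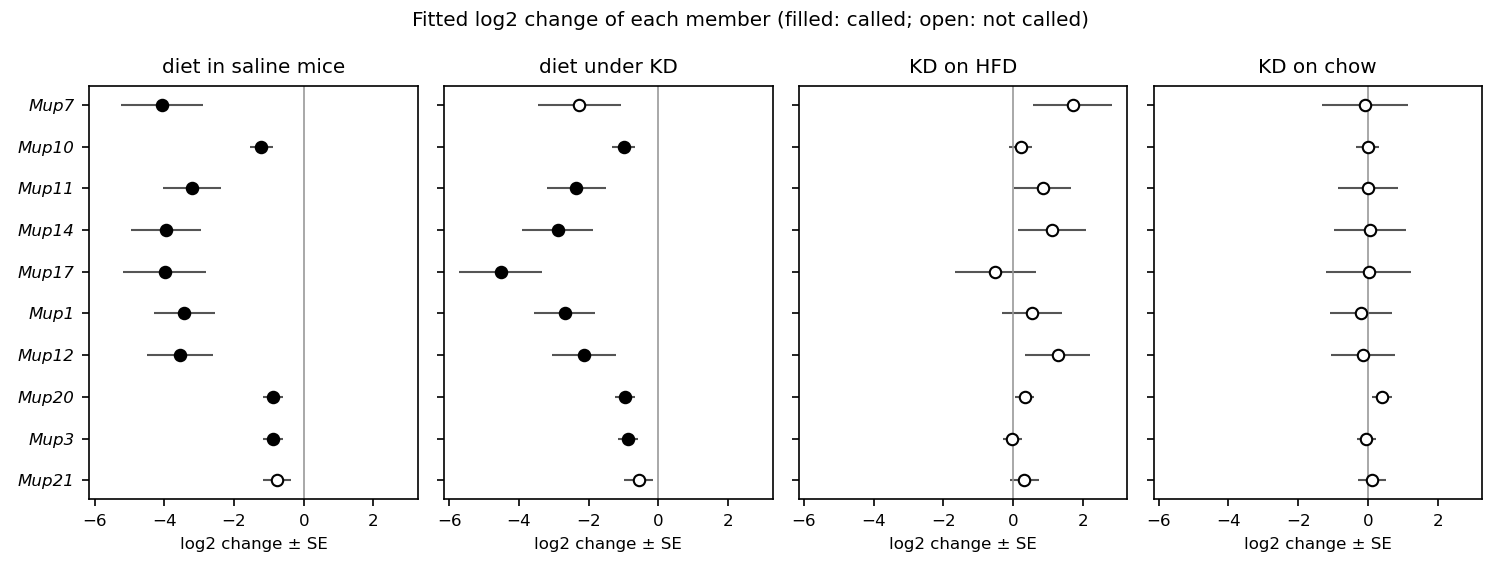
Fitted log2 changes of the 10 members (rows) in 4 comparisons, with bars for 1 SE; filled points were called and open points were not. Points lie left of 0 for all members in both diet comparisons, 9 and 8 of them filled, and no point is filled in the knockdown comparisons.

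The other genes of the pathway were taken from lists of genes known for growth hormone signalling or for a sex bias in mouse liver. These lists and those below were chosen with earlier results of these data known. Their shares called are therefore not those of sets picked blind to the data. Of 20 male-biased genes 18 were tested, and all 18 were called lower on HFD in saline mice, where 12.7% of all genes were, with a median log2 change of -2.11. Hsd3b5, a steroid-metabolising enzyme of male liver, stood at 206.2, 168.8, 175.2 and 192.8 CPM in Chow and at 0, 58.8, 0.153 and 35.9 CPM in HFD. This gene was picked after its values were seen, and as for Mup7 its lowest HFD libraries were HFD 1 and HFD 3. The 4 with the smallest p were Elovl3, a fatty acid elongase (-2.80, SE 0.27, adjusted p = 5.06e-05), Gstp1, a glutathione transferase (-2.14, SE 0.25, adjusted p = 0.000143), Serpina1e, a protease inhibitor (-4.73, SE 0.70, adjusted p = 0.00106) and Cyp4a12b, a fatty acid hydroxylase (-4.56, SE 0.70, adjusted p = 0.0013). Gstp1 and Serpina1e have close paralogs, as the Mup genes do. Under knockdown 15 of the 18 were called lower on HFD, against 10.1% of all genes. Without HFD/FGFR4 KD 1 it was 17, where 1261 of 11405 genes were called lower.

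Of the 18 male-biased genes 3 were called higher in HFD/FGFR4 KD than in HFD, where 3.14% of all genes were called in either direction. The calls over all genes dropped from 356 to 138 without HFD/FGFR4 KD 1. They were Cyp4a12b (log2 change 3.20, SE 0.72, adjusted p = 0.0807), Elovl3 (1.11, SE 0.26, adjusted p = 0.0936) and Serpina1e (2.47, SE 0.68, adjusted p = 0.171). Cyp4a12b stood at 0.443, 15.3, 1.87 and 18.1 CPM in HFD and at 66.7, 25.6, 25.8 and 25.6 CPM in HFD/FGFR4 KD, so its groups did not overlap even with HFD/FGFR4 KD 1 set aside. Without that library Cyp4a12b and Elovl3 were still called (2.86 and 0.89, adjusted p = 0.139 and 0.235) and Serpina1e was not (1.85, adjusted p = 0.385). Cyp4a12a, a paralog of Cyp4a12b on the same list, ranged from 27.1 to 126.9 CPM in HFD and from 55.2 to 199.2 in HFD/FGFR4 KD. These ranges overlapped, and without that library its change was 0.20 (adjusted p = 0.935). How reads were divided between the paralogs was not tested. Whether these genes differed from the Mup members in their response was not tested.

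Of 23 female-biased genes only 5 passed the filter on low counts. On HFD in saline mice 4 of them were called higher, where 13.3% of all genes were, and these were Cyp17a1, an enzyme of steroid synthesis (2.67, SE 0.60, adjusted p = 0.0119), Fmo2, a monooxygenase (1.26, SE 0.30, adjusted p = 0.0153), the transcription factor Tox (0.89, SE 0.30, adjusted p = 0.0676) and the cofactor Trim24 (0.71, SE 0.32, adjusted p = 0.175). The remaining tested gene, Cyp2b10, had a mean of 2.73 CPM in Chow and 1.26 in HFD and was not called. Genes that stayed under the filter are not part of that count. Under knockdown 1 of the 5 was called higher on HFD and 1 lower, where 1148 of 11324 genes were called higher and 1145 lower. Without HFD/FGFR4 KD 1 the filter left 6 of the listed genes, and 3 were called higher and 1 lower. Of all 11405 genes then tested, 1285 were called higher and 1261 lower. Tox (-1.03, SE 0.30, adjusted p = 0.19) and Fmo2 (-0.85, SE 0.27, adjusted p = 0.225) were called lower in HFD/FGFR4 KD than in HFD, and neither was called without HFD/FGFR4 KD 1 (-0.69 and -0.56, adjusted p = 0.43 and 0.492).

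The growth hormone axis itself was called about as often as all genes. Of 18 listed genes 16 were tested, and 2 were called higher and 2 lower on HFD in saline mice, where 13.3% of all genes were called higher and 12.7% lower, with a median of -0.22. Ghr, the growth hormone receptor, stood at 450.7 ± 24.2 CPM in Chow and 397.6 ± 56.8 CPM in HFD (-0.19, SE 0.10, adjusted p = 0.256). Stat5b stood at 55.9 ± 8.36 and 50.2 ± 6.68 CPM (-0.14, SE 0.13, adjusted p = 0.534), and Igf1, the hormone whose hepatic synthesis growth hormone drives, at 381.4 ± 25.2 and 324.9 ± 68.2 CPM (-0.25, SE 0.15, adjusted p = 0.301). None of these 3 was called. The feedback inhibitors Socs2 (-0.62, SE 0.70) and Cish (-0.04, SE 1.001) varied too widely among mice to show a change of that size. Among the called genes were carriers of IGF, with Igfbp2 (-1.56, SE 0.27, adjusted p = 0.0032) and Igfbp1 (-2.23, SE 0.52, adjusted p = 0.014) lower and Igfbp3 (0.89, SE 0.31, adjusted p = 0.0822) higher. In HFD/FGFR4 KD against HFD, Igfbp2 was called higher (1.42, SE 0.27, adjusted p = 0.0453) and Igfbp3 lower (-0.95, SE 0.31, adjusted p = 0.228). Without HFD/FGFR4 KD 1 Igfbp2 was still called (1.45, adjusted p = 0.0983) and Igfbp3 was not (-0.75, adjusted p = 0.483).

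Of 15 receptors and factors known to act on Mup or other hepatocyte genes, all were tested, and 3 were called higher and 3 lower on HFD in saline mice, against 13.3% and 12.7% of all genes, with a median of -0.05. Zhx2, a transcription factor known to control Mup and other liver genes, fell from 18.2 ± 1.77 to 13.5 ± 2.1 CPM (-0.45, SE 0.18, adjusted p = 0.135). Foxa3 (-0.74, SE 0.23, adjusted p = 0.057) and Hnf4a (-0.44, SE 0.17, adjusted p = 0.108) were also called lower, and the nuclear receptors Ppara (0.61, SE 0.14, adjusted p = 0.0119) and Nr1i3 (0.63, SE 0.28, adjusted p = 0.161) and the factor Cebpa (0.25, SE 0.11, adjusted p = 0.173) higher. The glucocorticoid receptor Nr3c1 (-0.20, SE 0.12, adjusted p = 0.334) was not called. In HFD/FGFR4 KD against HFD only Cebpb was called (1.32, SE 0.36, adjusted p = 0.16), and it was not called without HFD/FGFR4 KD 1, although its value hardly moved (1.29, adjusted p = 0.291).

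Other secreted proteins of the liver were taken beside the Mup genes. Of 8 tested lipocalins outside the family, 3 were called lower and 1 higher on HFD in saline mice, against 12.7% and 13.3% of all genes, with a median of -0.21. Apom, a carrier of sphingosine phosphate on lipoproteins, fell from 122.8 ± 17.8 to 61.9 ± 5.68 CPM (-0.98, SE 0.13, adjusted p = 0.000592), and Ambp (-0.34, SE 0.09, adjusted p = 0.0313) and the odorant-binding Obp2a (-1.95, SE 0.87, adjusted p = 0.166) were lower, while the acute-phase protein Orm2 was higher (1.79, SE 0.81, adjusted p = 0.175). Of 24 other plasma protein genes 11 were called lower and 1 higher, with a median of -0.11. The 4 lower with the smallest p were the protease inhibitors Serpina1a (-0.56, SE 0.11, adjusted p = 0.0058), Serpina1d (-0.59, SE 0.13, adjusted p = 0.0106) and Serpina3k (-1.48, SE 0.37, adjusted p = 0.0177) and the adhesion protein Vtn (-0.42, SE 0.10, adjusted p = 0.0153), and the gene called higher was Apoe (0.41, SE 0.09, adjusted p = 0.0126). In HFD/FGFR4 KD against HFD no other lipocalin was called, and of the plasma proteins Serpina1a was higher (0.35, SE 0.11, adjusted p = 0.234) and Ttr, the thyroxine carrier, lower (-0.51, SE 0.11, adjusted p = 0.079). Without HFD/FGFR4 KD 1 Serpina1a was not called (0.28, adjusted p = 0.483) and Ttr was (-0.48, adjusted p = 0.186).

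**Figure D4:**
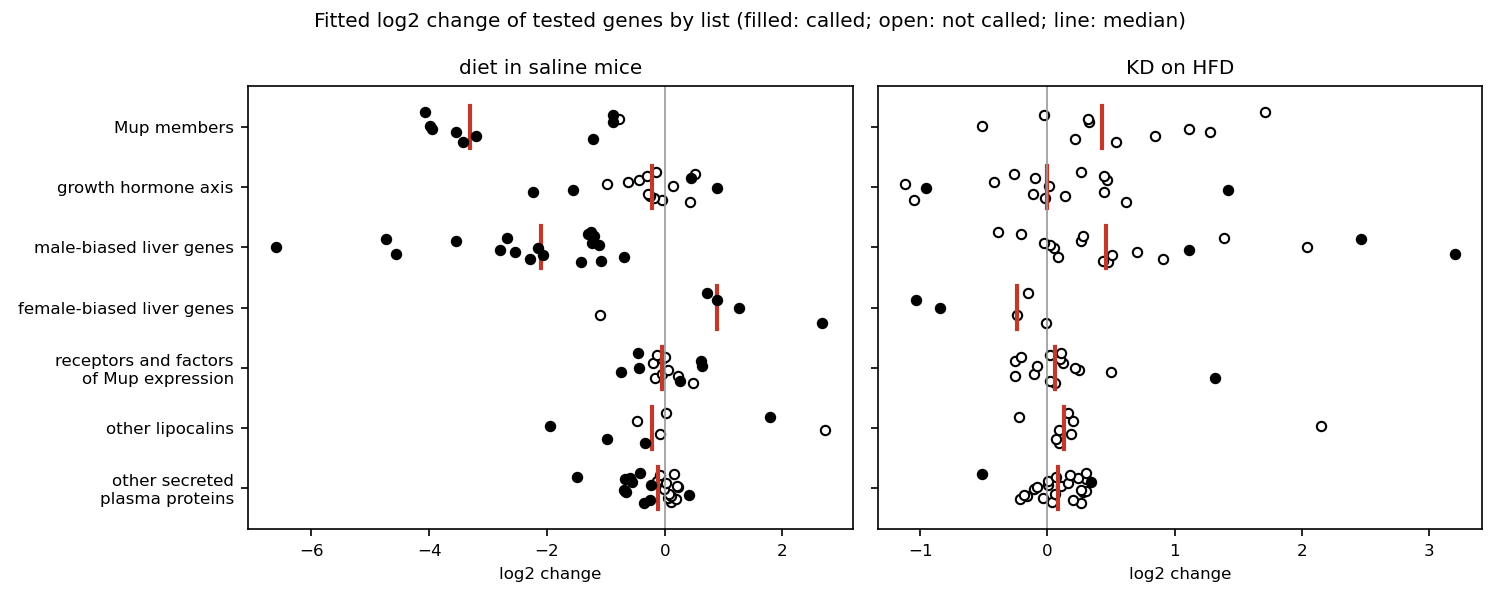
Fitted log2 change of each tested gene, grouped by list, on HFD against Chow in saline mice (left) and in HFD/FGFR4 KD against HFD (right); filled points were called, open points were not, and red lines are medians. On the left the Mup members and the male-biased genes have medians of -3.32 and -2.11, against -0.11 for other secreted plasma proteins, and on the right no Mup point is filled.

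Among the genes whose levels ran most nearly in parallel with the summed members were several enzymes and secreted proteins of hepatocytes. Of 10493 genes outside the family, ranked by the correlation of log2 CPM with the log2 sum, the 6 highest were Selenbp2, a selenium-binding protein (r = 0.98), Cyp7b1, an oxysterol hydroxylase (0.98), Serpina3k (0.98), Serpine2, a protease inhibitor (0.97), the complement component C6 (0.96) and Hsd17b2, a steroid dehydrogenase (0.95). Selenbp2, Cyp7b1 and C6 are on the male-biased list. After removal of the group means r was 0.97, 0.96, 0.95, 0.96, 0.92 and 0.89, pooled over the groups. These values come from the same 16 libraries by which the genes were picked, so they are no separate support. Selenbp2 stood at 1551, 1384, 485.8 and 1010 CPM in Chow and at 19.7, 309.4, 35.1 and 277.3 CPM in HFD, with HFD 1 and HFD 3 at the bottom. The 4 lowest correlations were those of Idh2, a mitochondrial isocitrate dehydrogenase (-0.95), the lipoprotein receptor Vldlr (-0.95), the fatty acid desaturase Fads1 (-0.94) and the lysosomal lipase Lipa (-0.94). Idh2 stood at 57.0, 58.2, 79.3 and 65.1 CPM in Chow and at 109.8, 57.7, 122.6 and 76.7 CPM in HFD, and with group means removed its r was -0.98. Without HFD/FGFR4 KD 1 the 6 highest values were 0.954 to 0.983 and the 4 lowest -0.935 to -0.953. The libraries share group, scaling and composition, and the values are a description over 16 points.

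**Figure D5:**
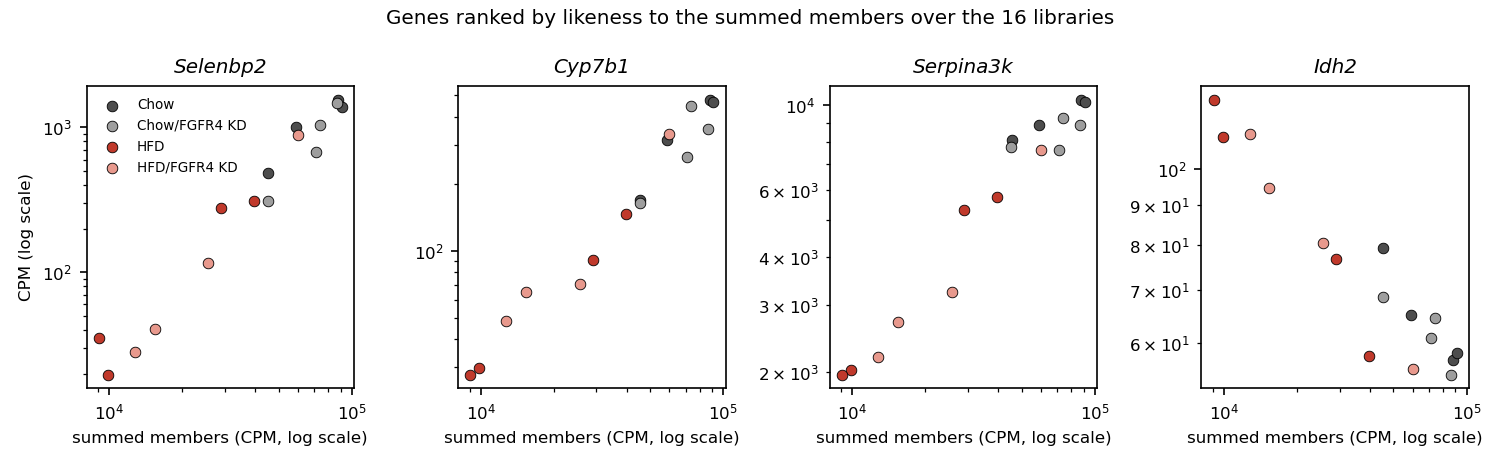
CPM of 4 genes against the summed CPM of the 10 members, both on log scales, with 1 point for each of the 16 libraries coloured by group. Selenbp2, Cyp7b1 and Serpina3k rise with the Mup sum over the 16 libraries (r = 0.98 each), and Idh2 falls (r = -0.95).

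Markers of some other cell types rose on HFD, where the Mup sum was lower, and those of others did not. Of 7 markers of Kupffer cells or macrophages all 7 were called higher on HFD in saline mice, where 13.3% of all genes were. Their summed level was 51.5 to 60.6 CPM in Chow and 63.0 to 85.7 in Chow/FGFR4 KD. It was 95.4 to 175.6 in HFD and 79.1 to 146.6 in HFD/FGFR4 KD. Among the HFD libraries it was highest in HFD 2, which also had the highest Mup sum, against 95.4 to 105.9 CPM in HFD 1, HFD 3 and HFD 4. Of 5 stellate cell markers 2 were called higher, with sums of 48.6 to 71.0 CPM in Chow, 40.0 to 59.7 in Chow/FGFR4 KD, 80.0 to 175.8 in HFD and 56.1 to 116.2 in HFD/FGFR4 KD, and HFD 1 and HFD 3 had the highest, at 175.8 and 167.6 CPM, while HFD/FGFR4 KD 1 had the lowest of its group. Of 4 adipocyte markers only Cidec passed the filter and was called higher. The sum of the listed markers was 1.18 to 14.4 CPM in Chow and 1.10 to 9.32 in Chow/FGFR4 KD. It was 14.2 to 85.9 in HFD and 2.60 to 23.02 in HFD/FGFR4 KD. Lep was at 0 in all groups and Plin1 at 0 in HFD, so these did not rise with Cidec and the call is that of a single gene. Of 4 endothelial markers 1 was called higher, with sums of 84.1 to 104.7 CPM in Chow and 86.2 to 101.2 in HFD, and of 5 cholangiocyte markers 2 were tested and none was called. The 4 lymphocyte markers were below the filter, at a summed level of at most 1.83 CPM. The part of these cells in the Mup values was not tested. The hepatocyte sum was 64070 to 71330 CPM in Chow and 61910 to 73020 CPM in HFD, ranges that overlapped. Of its 6 genes 3 were called lower, where 12.7% of all genes were. In tissue libraries fewer cells of a type and less RNA per cell cannot be told apart.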

How the data were processed

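Liver libraries of 16 mice were analysed. Per the labels and the study's methods, the authors trimmed reads with fastp, pseudoaligned them with kallisto (GRCm38) and summed transcripts to genes with tximport. The deposited values are estimated counts per gene, not scaled, with 1 column per library and 0 columns without a sample. Versions and the transcriptome release are not given in the sources used here. The labels name the KAPA mRNA HyperPrep kit and the methods HTG EdgeSeq. Of 52143 rows, 51250 (98.3%) had a symbol.

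Genes under 1 CPM in more than 4 libraries were dropped, which left 11324. The estimated counts were scaled by TMM and fitted over all 4 groups with limma-voom (limma 3.58.1, edgeR 4.0.16, R 4.3.3). A gene was called at p under 0.05 and a Benjamini-Hochberg adjusted p under 0.25, the study's threshold. Adjusted p-values in the text come from limma. CPM values are TMM-scaled, and shares use raw totals. Coding sequences and 31-base words came from GENCODE M21, promoters from RefSeq. DESeq2 1.42.0 (rounded counts), edgeR's quasi-likelihood test, other filters and scalings, library weights, the replicate block and leaving out each library were tried. The code was tested on simulated data.

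All members were named. From each list at most 4 genes called higher and 4 called lower by diet in saline mice, and at most 3 each way by knockdown on HFD, were named by smallest p, besides fixed hormone and receptor genes and the 6 genes most like and 4 most unlike the sum. Some genes that this rule names are not reported here. The members and lists were chosen with earlier results of these data known, and the values without HFD/FGFR4 KD 1 for lists, likeness and spread were added after seeing the data. The labels do not say whether libraries of a group were prepared together, and p-values measure only the spread between these libraries. No 2 libraries of a group agreed within sampling noise.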

Additional observations from a re-analysis of the deposited data

Results flagged for a closer look

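In 3 of 44 sets of 4 libraries checked, the highest library stood far from the other 3, with a gap over the whole range above Dixon's 95% critical value, which chance alone passes in about 1 of 20 sets. Mup17 in HFD/FGFR4 KD 1 stood at 1590 CPM, a gap of 0.903 of the range. Mup1 in the same library stood at 1404 CPM, a gap of 0.845. Mup3 in Chow/FGFR4 KD 2 stood at 6166 CPM, a gap of 0.855.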

How the results depend on the processing

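Both diet comparisons kept their direction for every member in all 20 alternatives tried for each, with 182 of 200 calls made in saline mice and 145 of 200 under knockdown. Under knockdown 1 member instead of 8 was called at an adjusted p under 0.05, and leaving out 1 library gave 4 to 9 (4 without HFD/FGFR4 KD 3, 5 without HFD/FGFR4 KD 4). On HFD the knockdown changes, none called, turned sign in 15 of 200 values. Mup3 was 0.024 with library weights, and Mup17 was 0.20 by edgeR and by DESeq2. Leaving out 1 library gave -0.32 to 1.25 for Mup1, -0.28 to 0.20 for Mup3, -0.054 to 0.51 for Mup10, -1.79 to 0.40 for Mup17 and -0.0022 to 0.66 for Mup21, and the lowest difference between knockdown effects ran from -1.82 to 0.019. On chow 38 of 200 values turned, and 27 of 270 for the difference. The cause was not tested. Over all genes the calls ranged from 1042 to 5324 for diet in saline mice (2939 reported), 351 to 2642 under knockdown (2293) and 31 to 776 for knockdown on HFD (356). With the replicate block 9, 9, 0, 0 and 0 members were called for diet in saline mice, diet under knockdown, knockdown on HFD, knockdown on chow and their difference. The numbers did not pair the libraries, since deviations of same-numbered libraries correlated at -0.29 to 0.24 and 3 of 16 libraries correlated best with their own number. Depth was not limiting for the sum, but the division of reads among near-identical copies is an estimate.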
